A study of Mus musculus with 8 samples.

Results

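The DNA replication machinery was followed through 40 genes that copy the genome, chosen by name and found on the arrays by the gene name in the scanner files or, through the probe's accession, by a current symbol or synonym. All 40 were found, on 56 of 41174 probes, and all 40 were among the 16068 genes tested. The samples were IMCD3 cells, an established mouse kidney line derived from the collecting duct of the inner medulla. Starved cells had been kept without fetal calf serum for 48 h. Unstarved cells were kept in 10% serum, had been replated more thinly on the preceding day and were taken before confluence, so serum and cell density differed together between the groups. There were 4 starved and 4 unstarved samples, co-hybridised in starved and unstarved pairs on 4 Agilent 2-colour arrays that make up 2 biological replicates of 2 arrays each.

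Replication begins in G1, when the origin recognition complex, Cdc6 and Cdt1 load the ring-shaped MCM helicase onto DNA. Cyclin E with its kinase partner helps to start S phase, Cdc45 and the GINS complex turn the loaded ring into an active helicase, and polymerases held by the sliding clamp PCNA then copy both strands from nucleotides supplied by ribonucleotide reductase, thymidylate synthase and thymidine kinase. Many of these genes are targets of E2F transcription factors and are known for high transcript levels in cycling cells, and cells deprived of serum are widely used as a model of cell cycle exit.

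The sample labels put the starved RNA in Cy5 on arrays 1 and 3, which are replicate 1, and in Cy3 on arrays 2 and 4, which are replicate 2, so dye and replicate cannot be told apart, although the series text speaks of a dye swap within each pair. The tested probe of every one of the 40 genes was well above background in all 8 samples. Of 20 collecting duct and epithelial markers, 18 were well above background on all 4 arrays in starved cells and 16 in unstarved cells. The epithelial sodium channel subunit Scnn1b and the transcription factor Elf5 were well above background on all 4 arrays in neither group. Of 7 endothelial markers 0 were well above background in starved cells and 0 in unstarved cells, of 9 fibroblast markers 2 in starved and 3 in unstarved cells, and of 8 leukocyte markers 4 in starved and 5 in unstarved cells. Some markers also differed between the groups. Of the 18 epithelial markers tested 9 were called higher in starved cells, up to a log2 ratio of 2.30 for Scnn1g, and 2 lower, Krt8 (-0.64) and Krt7 (-1.07). Of 3 fibroblast markers tested 2 were called lower, Col1a1 (-1.01) and Postn (-1.03). Of 5 leukocyte markers tested Csf1r (1.44) and Cd14 (0.88) were called higher and Ptprc (-0.50) lower. A marker was tested if it was well above background on all 4 arrays of at least 1 group. Some thus entered through 1 group only, and the direction of their calls can be set by that filter. The fibroblast and leukocyte markers tested were dim, with median log2 brightness of 7.80 and 8.68, against 11.7 over all genes. The part of these markers in the replication results was not tested. RNA per cell and the share of cycling cells were not measured, so a different share of cells in S phase and a different amount of transcript per cell cannot be told apart, in either direction.

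Of the 40 replication genes, 14 rose in starved cells, 1 fell and 25 did not pass the test (limma, Benjamini-Hochberg adjusted p below 0.05 over all genes). The genes that rose were led by Lig1, Chaf1b, Mcm6, Pcna and Mcm7, at 1.74-fold to 1.52-fold, and the gene that fell was Ccne2. Over all genes tested 18.1% were called higher and 13.4% lower. The median log2 ratio of starved over unstarved cells was 0.26 over the 40 genes, with 0.20 in replicate 1 and 0.25 in replicate 2, against 0.01 over all genes. The ratio was above 0 on all 4 arrays for 28 of the 40 genes, against 36.1% of all genes, and below 0 on all 4 for 4 of them, against 33.3%. The calls depended on loess, the correction of each array's dye ratio along the brightness scale. With median centring in its place 0 of the 40 genes were called in either direction by limma, against 1.55% of all genes, and 0 reached an unadjusted p below 0.05 in limma. Their median was then 0.02, against -0.08 over all genes. Under that setting the median over all genes was 0.25 in replicate 1 and -0.40 in replicate 2. This shift between replicates enters the error of each gene, so 0 calls cannot tell a lack of difference from a wide error. When all 4 arrays were fitted singly with a dye term, 33 of the 40 genes were called higher and 5 lower. But so were 88.4% of all genes in either direction, which says little about the 40. By the labels, that fit takes its error from repeat arrays of the same replicate and not from the spread between replicates.

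**Figure D1:**
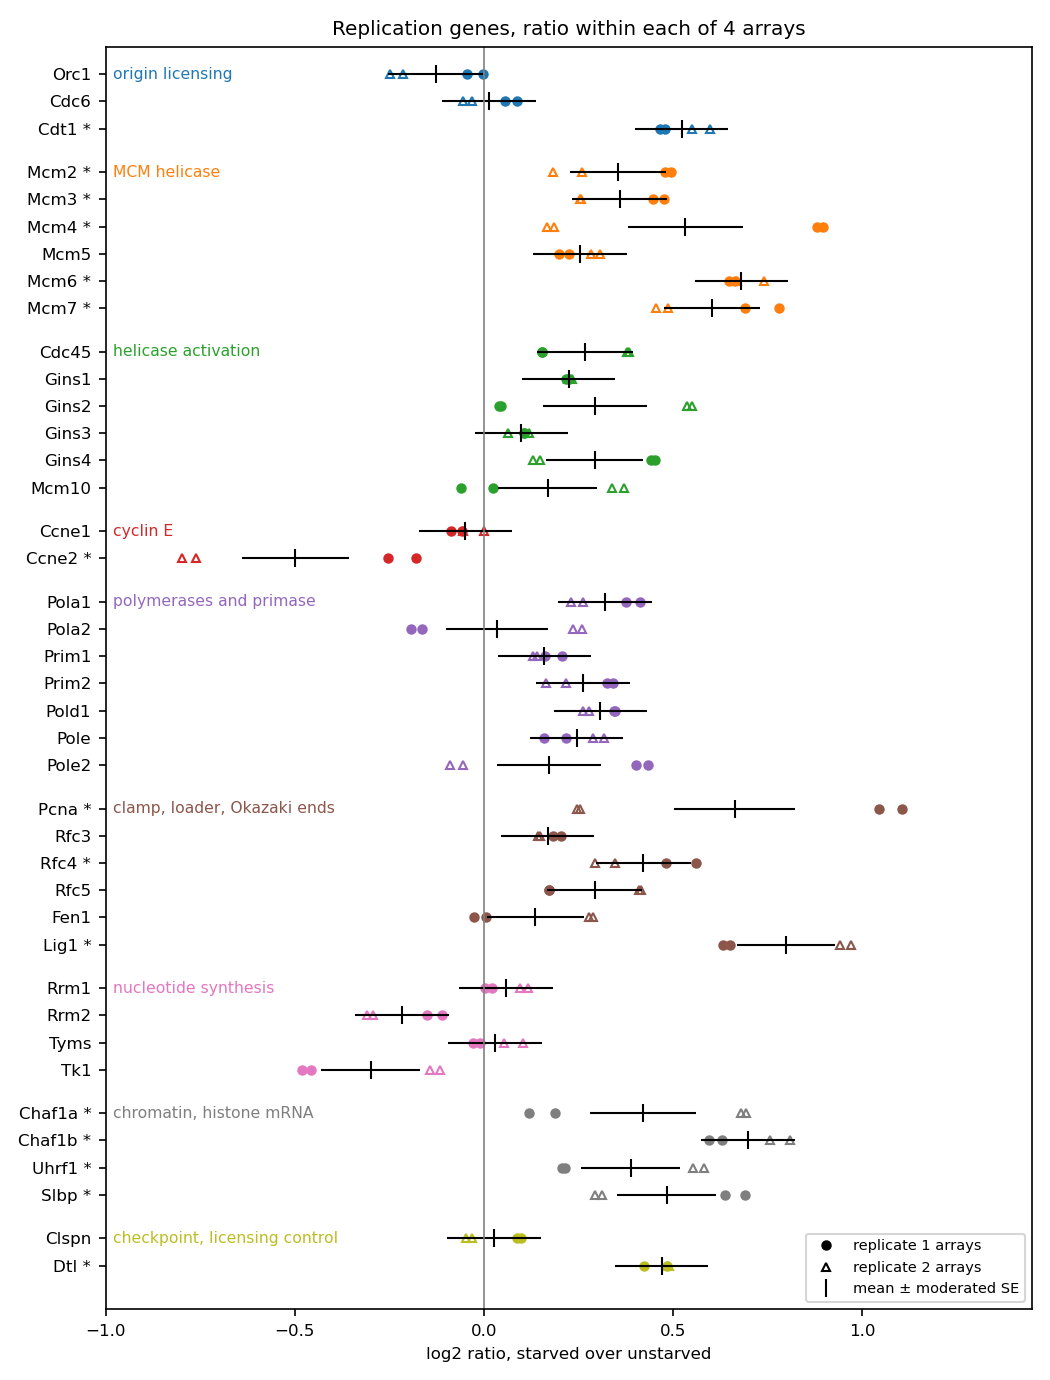
Log2 ratio of starved over unstarved cells (horizontal axis) for the 40 replication genes, grouped by role. Filled circles are the arrays of replicate 1, open triangles those of replicate 2, black marks the mean with its moderated standard error (n = 2 replicates), and asterisks the 15 genes past adjusted p of 0.05. Of the 6 MCM genes 5, and of the 4 chromatin genes all 4, carry an asterisk, and none of the 4 nucleotide synthesis genes does.

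The MCM helicase, the ring that unwinds DNA ahead of the fork, had all 6 subunits higher in starved cells on all 4 arrays, and 5 of the 6 passed the test. Their median log2 ratio was 0.45. Mcm6 differed most and in both replicates alike (0.68 ± 0.12, moderated SE, n = 2, limma adjusted p = 4.8e-04). Its log2 levels were 17.30, 17.42, 17.62 and 17.56 in the starved samples of arrays 1, 3, 2 and 4, against 16.63, 16.77, 16.88 and 16.89 in the unstarved samples of the same arrays. All starved levels lay above all unstarved levels. Levels are log2 intensities after normalisation, to be compared between samples of 1 gene and not between genes. Arrays 1 and 3 belong to replicate 1 and arrays 2 and 4 to replicate 2, and levels are given in that order of arrays throughout. The 4 levels of a group are thus 2 replicates on 2 arrays each. Groups called non-overlapping here and below rest on 2 replicates a group.

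Mcm7 had levels of 17.46, 17.32, 17.43 and 17.39 in starved cells and 16.68, 16.63, 16.94 and 16.93 in unstarved cells (log2 ratio 0.60 ± 0.13, adjusted p = 0.0017). Mcm4 had 17.59, 17.61, 17.42 and 17.29 in starved cells against 16.71, 16.71, 17.23 and 17.12 in unstarved cells. The Mcm4 groups did not overlap, but its ratio was 0.89 in replicate 1 and 0.18 in replicate 2, with a mean of 0.53 ± 0.15 (adjusted p = 0.013). The gap in Mcm4 level between replicates was wider in the unstarved samples (17.48 ± 0.17 in starved cells, 16.94 ± 0.33 in unstarved cells, SD, n = 2 replicates each).

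Mcm3 reached 16.85, 16.94, 16.80 and 16.80 in starved samples, against 16.41, 16.47, 16.55 and 16.55 in unstarved samples (0.36 ± 0.13, adjusted p = 0.039). Mcm2 reached 14.97, 15.23, 14.90 and 14.99 in starved samples, against 14.48, 14.75, 14.71 and 14.73 in unstarved samples (0.35 ± 0.13, adjusted p = 0.044). Both genes had non-overlapping groups, and Mcm2 stood nearest to the threshold of the 14 genes that rose. With Agilent's own processed signals neither passed (limma adjusted p = 0.102 for Mcm2 and 0.0508 for Mcm3), and Mcm2 did not pass without array 4 (adjusted p = 0.0613), with a random replicate block (0.0509) or with a normexp offset of 10 (0.0501).

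Mcm5 was the subunit that did not pass. Its levels were 16.08, 16.00, 16.11 and 16.06 in starved cells and 15.86, 15.80, 15.80 and 15.78 in unstarved cells, again without overlap, with a log2 ratio of 0.25 ± 0.12 (adjusted p = 0.13). With median centring the 6 ratios ran from -0.07 for Mcm5 and -0.03 for Mcm3 to 0.25 for Mcm6. In build mm8, to which the array's design refers, the Mcm6 probe lies at chr1:130159147-130159206 and the Mcm7 probe at chr5:138394485-138394544, both on the minus strand, and no annotation of that build was used here to place them in exons.

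**Figure D2:**
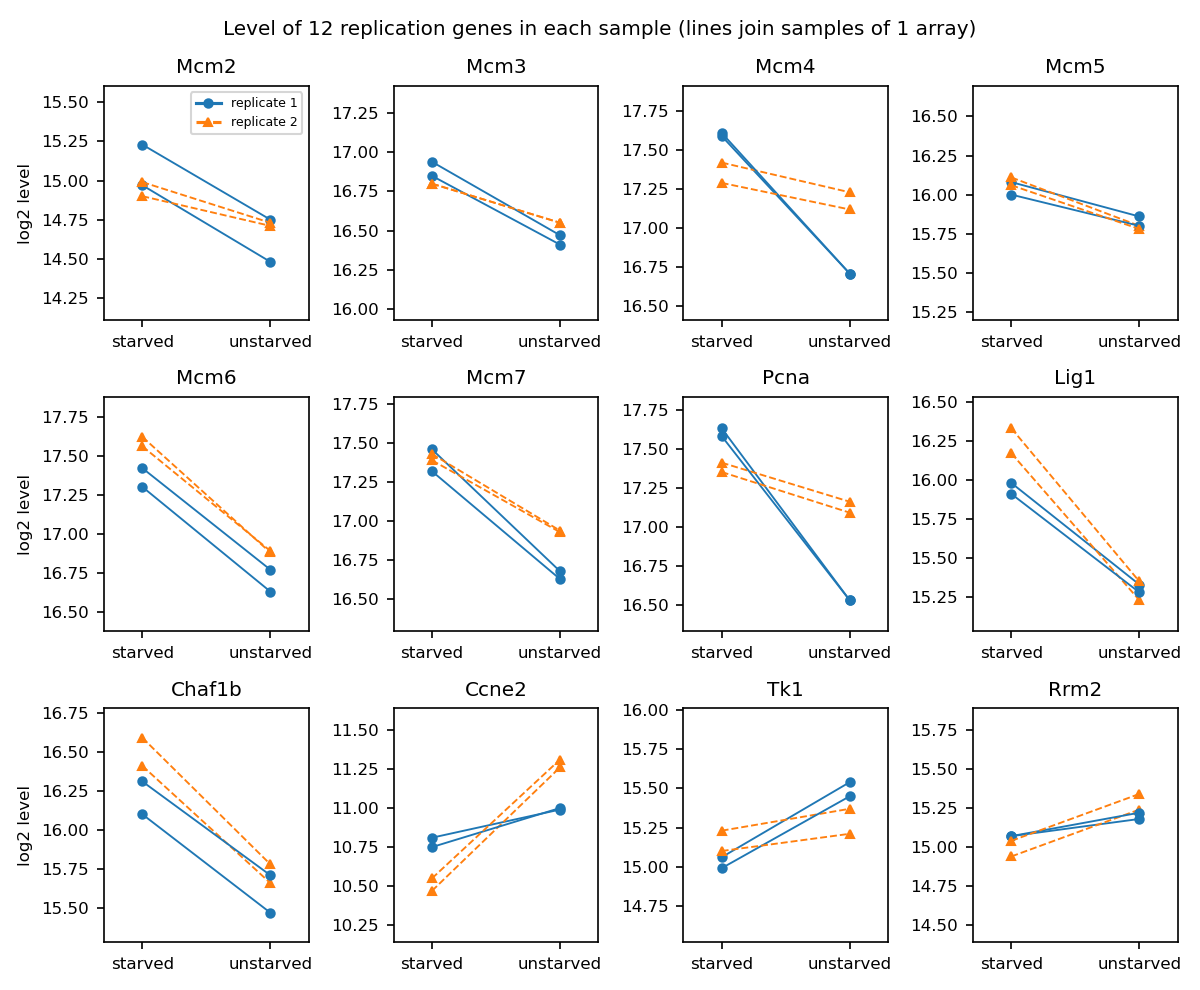
Normalised log2 level (vertical axis, a span of 1.5 in every panel) of 12 replication genes in each starved sample, left, and unstarved sample, right. Lines join the samples of 1 array, with replicate 1 in solid blue and replicate 2 in dashed orange. The lines fall to the right for the MCM genes, Pcna, Lig1 and Chaf1b and climb for Ccne2, Tk1 and Rrm2, and those of Mcm4 and Pcna are steeper in replicate 1.

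E2F factors are known to bind sites of the form TTTCCCGC, TTTCGCGC, TTTGGCGC or TTTGCCGC. These letters were searched on both strands, where matches of different motifs can overlap, in RefSeq promoter windows of build GRCm38.p6 that run from 250 bases before a gene's start to 50 bases after it. At least 1 match was found for 16 of the 33 replication genes with a window (48.5%), against 704 of 27025 genes with a window (2.60%). Mcm4, Gins1, Gins2, Gins4, Ccne2, Prim2 and Pole had no window in the table. The MCM group held matches in 4 of 5 genes and the origin licensing group in 3 of 3, while the nucleotide synthesis group held them in 0 of 4. The polymerase group held matches in 3 of 5 genes and had 0 calls, with a median log2 ratio of 0.25. The chromatin group held them in 1 of 4 and had 4 calls. The checkpoint and licensing control group held them in 2 of 2, the clamp group in 2 of 6, helicase activation in 1 of 3 and cyclin E in 0 of 1. Whether matches and calls go together was not tested. The stretches printed here are those of Mcm6, Mcm7, Uhrf1 and Dtl, which rose, and of Mcm5, Orc1 and Cdc6, which did not pass. Each covers only bases before the gene's start, on the gene's strand, 5′ to 3′, with the matches in capitals. Matches after the start are not printed, and Mcm7 has a further one there, TTTCGCGC at bases 17 to 24. Those before the start of Gins3, Pola1 and Rfc3, which did not pass, are not printed either.
Mcm6: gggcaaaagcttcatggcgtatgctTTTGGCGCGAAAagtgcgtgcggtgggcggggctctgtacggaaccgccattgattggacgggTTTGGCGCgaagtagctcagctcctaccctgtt
Mcm5: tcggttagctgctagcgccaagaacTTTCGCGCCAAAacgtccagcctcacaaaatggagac
Mcm7: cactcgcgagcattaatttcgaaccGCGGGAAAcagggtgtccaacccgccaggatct
Orc1: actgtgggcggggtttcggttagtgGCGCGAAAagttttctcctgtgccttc
Cdc6: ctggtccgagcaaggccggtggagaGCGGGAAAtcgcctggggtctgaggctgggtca
Uhrf1: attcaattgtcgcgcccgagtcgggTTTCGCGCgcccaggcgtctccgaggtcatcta
Dtl: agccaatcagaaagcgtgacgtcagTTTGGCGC

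In GRCm38.p6 the Mcm6 stretch is chr1:128359720-128359840 (minus strand), Mcm5 is chr8:75109331-75109392 (plus) and Mcm7 is chr5:138172016-138172073 (minus). Orc1 is chr4:108579402-108579453 (plus), Cdc6 is chr11:98907988-98908045 (plus), Uhrf1 is chr17:56304103-56304160 (plus) and Dtl is chr1:191575545-191575577 (minus). Mcm6 holds 3 matches, of which a pair shares letters in the run TTTGGCGCGAAA, and the same run in the reverse order of strands stands in Mcm5 as TTTCGCGCCAAA. Of the 16 replication genes with a match 7 rose, with a median log2 ratio of 0.31, and of the 17 without one 6 rose, with a median of 0.17. Among tested genes outside the 40, 22.4% of the 460 with a match were called higher and 11.3% lower, against 18.8% and 13.4% of the 10022 without. A match is a description of letters, and binding was not measured.

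The 3 origin licensing genes differed among themselves. Cdt1, which brings the MCM ring to the origin, rose in starved cells (0.52 ± 0.12, adjusted p = 0.0038), with levels of 16.58, 16.58, 16.76 and 16.72 in starved samples against 16.11, 16.10, 16.17 and 16.17 in unstarved samples. All starved Cdt1 levels lay above all unstarved ones. Orc1, the largest subunit of the origin recognition complex, had 11.12, 11.07, 11.05 and 10.93 in starved samples and 11.13, 11.11, 11.27 and 11.18 in unstarved samples. The Orc1 groups overlapped, and the ratio of -0.13 ± 0.13 did not pass (adjusted p = 0.49). Cdc6, the ATPase that loads the ring together with Cdt1, had a ratio of 0.01 ± 0.12, with 0.07 in replicate 1 and -0.04 in replicate 2. A further Cdc6 probe gave 0.18, with 0.34 in replicate 1 and 0.01 in replicate 2. The Orc1 and Cdc6 stretches above carry the same kinds of letters as those of the MCM genes.

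None of the 6 genes that turn the loaded ring into a moving helicase passed the test, with a median log2 ratio of 0.25. Gins2, a GINS subunit, had the widest gap between replicates in this group, with 0.04 in replicate 1 and 0.54 in replicate 2 (0.29 ± 0.14, adjusted p = 0.12). Its levels overlapped between the groups, with 14.03, 13.97, 14.26 and 14.36 in starved cells and 13.98, 13.93, 13.72 and 13.81 in unstarved cells. The other GINS subunits had 0.29 (Gins4), 0.22 (Gins1) and 0.10 (Gins3). A further Gins1 probe gave -0.01 against 0.22 on the tested one. Cdc45, which joins MCM and GINS in the active helicase, had 0.27 ± 0.13 (adjusted p = 0.12), and Mcm10, a fork protein that is not part of the MCM ring, had 0.17 ± 0.13 (adjusted p = 0.36).

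Cyclin E, the regulatory partner of the kinase CDK2 at the start of S phase, gave the only replication gene that fell. Ccne2 had levels of 10.81, 10.75, 10.47 and 10.55 in starved samples, against 10.99, 11, 11.26 and 11.31 in unstarved samples. The groups did not overlap, and the gap was wider in replicate 2. The log2 ratio was -0.22 in replicate 1 and -0.78 in replicate 2, with a mean of -0.50 ± 0.14 (adjusted p = 0.013), a starved level 0.708 times the unstarved one. A second Ccne2 probe gave -0.48. The tested one lies at chr4:11130171-11130230 on the plus strand (mm8). Ccne1, the other E-type cyclin, had -0.05 ± 0.12 and overlapping groups (adjusted p = 0.80).

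The 7 polymerase and primase genes had a median log2 ratio of 0.25, and 0 of them passed. Pola1, the catalytic subunit of the polymerase that extends RNA primers, came nearest at 0.32 ± 0.12 (adjusted p = 0.061), with levels of 14.23, 14.22, 14.13 and 14.17 in starved samples and 13.82, 13.85, 13.90 and 13.91 in unstarved samples. Pold1, the catalytic subunit of lagging-strand polymerase delta, had 0.31 ± 0.12 (adjusted p = 0.069). Starved levels of Pola1 and of Pold1 lay above all their unstarved levels although neither passed. Pole, of leading-strand polymerase epsilon, had 0.25, and the primase subunits Prim1 and Prim2 had 0.16 and 0.26. The accessory subunit Pole2 had the widest gap between replicates, with 0.42 in replicate 1 and -0.07 in replicate 2. Pola2, the accessory subunit of polymerase alpha, had -0.18 in replicate 1 and 0.25 in replicate 2, and its 3 probes gave 0.03, 0.19 and -0.02. The probe at -0.02 was well above background on 0 arrays in either group.

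The clamp, its loader and the enzymes that finish Okazaki fragments, the short pieces of the lagging strand, had 3 of 6 genes higher. Lig1, the ligase that seals the fragments, had the largest ratio of the 40 genes (0.80 ± 0.13, 1.74-fold, adjusted p = 1.7e-04). Its levels were 15.98, 15.91, 16.17 and 16.33 in starved samples, against 15.33, 15.28, 15.23 and 15.35 in unstarved samples. The unstarved Lig1 levels were nearly alike on all arrays, and each starved one was higher. The Lig1 probe lies at chr7:12211439-12211497 on the plus strand (mm8). Pcna, the sliding clamp, had 17.63, 17.58, 17.41 and 17.35 in starved samples and 16.53, 16.53, 17.16 and 17.09 in unstarved samples. The groups did not overlap, and as with Mcm4 the unstarved samples of replicate 1 were the low ones. The Pcna ratio was 1.08 in replicate 1 and 0.25 in replicate 2, the widest gap of the 40 genes, with a mean of 0.66 ± 0.16 (adjusted p = 0.0045).

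Rfc4, a subunit of the clamp loader, rose to 15.95 ± 0.04 in starved cells, against 15.53 ± 0.10 in unstarved cells (SD, n = 2 each, ratio 0.42 ± 0.13, adjusted p = 0.017). The loader subunits Rfc5 and Rfc3 had 0.29 and 0.17 and did not pass, although in both genes the starved levels lay above all unstarved ones. The flap nuclease Fen1, which trims fragment ends ahead of the ligase, had -0.01 in replicate 1 and 0.28 in replicate 2.

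Nucleotide synthesis had a median log2 ratio of -0.09, and 0 of its 4 genes passed the test. Tk1, thymidine kinase of the salvage pathway, had 15.06, 14.99, 15.23 and 15.10 in starved samples, against 15.54, 15.45, 15.37 and 15.21 in unstarved samples. Its groups overlapped by 1 sample of each side, and its ratio was -0.47 in replicate 1 and -0.13 in replicate 2 (-0.30 ± 0.13, adjusted p = 0.093). Rrm2, the S phase subunit of ribonucleotide reductase, had 15.07, 15.07, 14.94 and 15.04 in starved samples and 15.18, 15.22, 15.24 and 15.34 in unstarved samples. All starved Rrm2 levels lay below all unstarved ones, but the ratio of -0.22 ± 0.12 did not pass (adjusted p = 0.21). Rrm1, the large subunit of the same enzyme, had 0.06, and Tyms, thymidylate synthase, had 0.03.

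The distance between the helicase and nucleotide groups was of like size with and without loess. The median of the 6 MCM genes minus the median of the 4 nucleotide genes was 0.65 and 0.64 on the arrays of replicate 1 and 0.31 and 0.30 on those of replicate 2, a mean of 0.48. With median centring it was 0.65 and 0.66 in replicate 1 and 0.29 and 0.26 in replicate 2, a mean of 0.47. With Agilent's processed signals the mean was 0.50. The MCM group was thus above the nucleotide group on 4 of 4 arrays under each of these settings. With 2 replicates and groups picked by name, the difference is given as a description with no test.

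All 4 genes of chromatin assembly and histone mRNA handling rose, with a median log2 ratio of 0.45. Chaf1b, the middle subunit of the chromatin assembly factor that places histones behind the fork, had 16.10, 16.31, 16.41 and 16.59 in starved samples against 15.47, 15.71, 15.66 and 15.78 in unstarved samples (0.70 ± 0.12, 1.62-fold, adjusted p = 4.3e-04). Every starved Chaf1b level exceeded every unstarved one. Chaf1a, its large subunit, had 0.15 in replicate 1 and 0.69 in replicate 2 (0.42 ± 0.14, adjusted p = 0.030). Slbp, which binds the stem-loop of histone mRNAs, had 0.66 in replicate 1 and 0.30 in replicate 2 (0.48 ± 0.13, adjusted p = 0.0096). Uhrf1, which reads hemimethylated DNA and helps to maintain methylation after replication, had 0.21 in replicate 1 and 0.57 in replicate 2 (0.39 ± 0.13, adjusted p = 0.032). Chaf1a, Slbp and Uhrf1 thus differed between replicates in both directions. With Agilent's processed signals Chaf1a (adjusted p = 0.069) and Uhrf1 (adjusted p = 0.069) did not pass, nor did Chaf1a with a random replicate block (adjusted p = 0.0587) or Uhrf1 averaged over its probes (adjusted p = 0.0610).

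Of the fork checkpoint and licensing control genes, Dtl rose and Clspn did not pass. Dtl, the substrate receptor through which a ubiquitin ligase destroys Cdt1 on chromatin, had levels of 14.45, 14.39, 14.38 and 14.33 in starved samples and 13.96, 13.97, 13.89 and 13.85 in unstarved samples. Those groups did not overlap and the replicates were alike (0.47 ± 0.12, adjusted p = 0.0076). The other Dtl probes gave 0.11 and 0.13, and averaged over its probes Dtl did not pass (adjusted p = 0.13). Clspn, claspin, an adaptor of the checkpoint kinase CHK1, had 0.03 ± 0.12 with overlapping groups.

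The 2 replicates placed 33 of the 40 genes on the same side of 0 (82.5%), against 74.9% of all genes tested. The median absolute gap between replicates was 0.20 over the 40 genes and 0.17 over all genes. In 24 of the 40 genes all 4 starved levels lay above all 4 unstarved levels, and in 2, Ccne2 and Rrm2, all lay below. These counts were not taken over all genes, so they cannot show anything particular to the 40. They also rest on 2 replicates a group and not on 4 independent samples. The arrays of a replicate correlated at r = 0.991 across genes in both replicates, and the replicates at r = 0.831, where genes are not independent replicates.

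**Figure D3:**
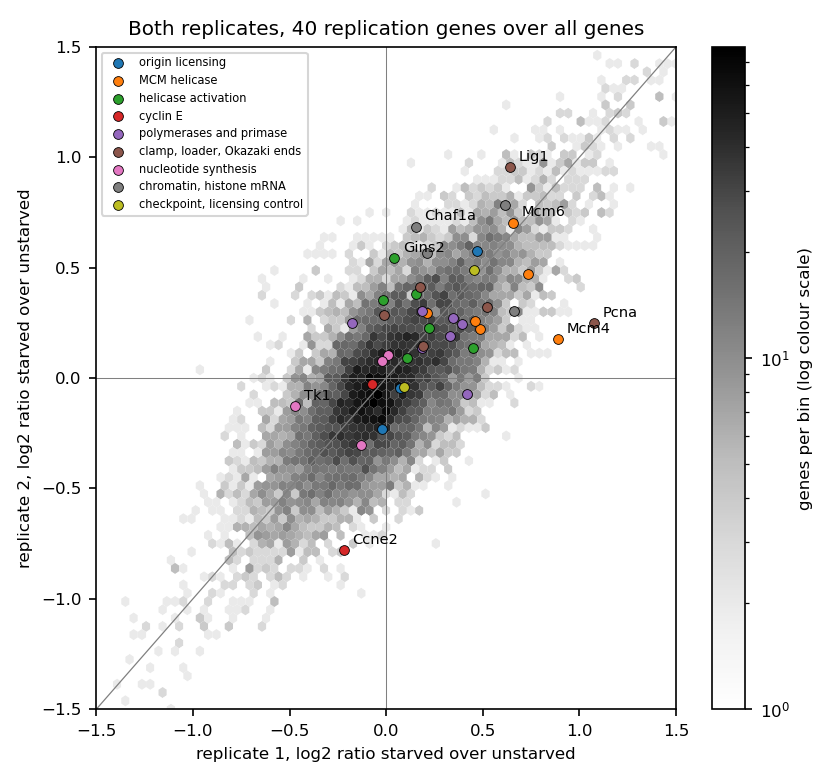
Log2 ratio of starved over unstarved cells in replicate 1 (horizontal) and replicate 2 (vertical). Grey hexagons count all 16068 genes on a log colour scale and coloured points are the 40 replication genes by role. Pcna and Mcm4 lie far below the diagonal with the larger ratio in replicate 1, and Chaf1a and Gins2 above it with the larger ratio in replicate 2.

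Before any normalisation the sign of the median ratio went with the dye and, by the labels, with the replicate alike. The median log2 ratio over all genes was 1.09 and 0.36 on arrays 1 and 3, with starved RNA in Cy5, and -0.88 and -0.83 on arrays 2 and 4, with starved RNA in Cy3. The medians of the 40 genes were 1.41 and 0.61 on arrays 1 and 3 and -1.07 and -0.997 on arrays 2 and 4. The replication probes were bright, with a median log2 brightness over both channels of 15.2, against 11.7 over all genes. Loess sets each gene against genes of like brightness, while median centring shifts all genes of an array by 1 value. With median centring the median of the 40 genes was 0.53 in replicate 1, against 0.25 over all genes, and -0.59 in replicate 2, against -0.40 over all genes. So by that measure the 40 genes stood above the typical gene in replicate 1 and below it in replicate 2. The MCM group, the brightest, had 0.92 in replicate 1 and -0.73 in replicate 2, and the nucleotide group had 0.27 and -1.002. Which of both corrections is closer to the transcript levels was not tested.

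**Figure D4:**
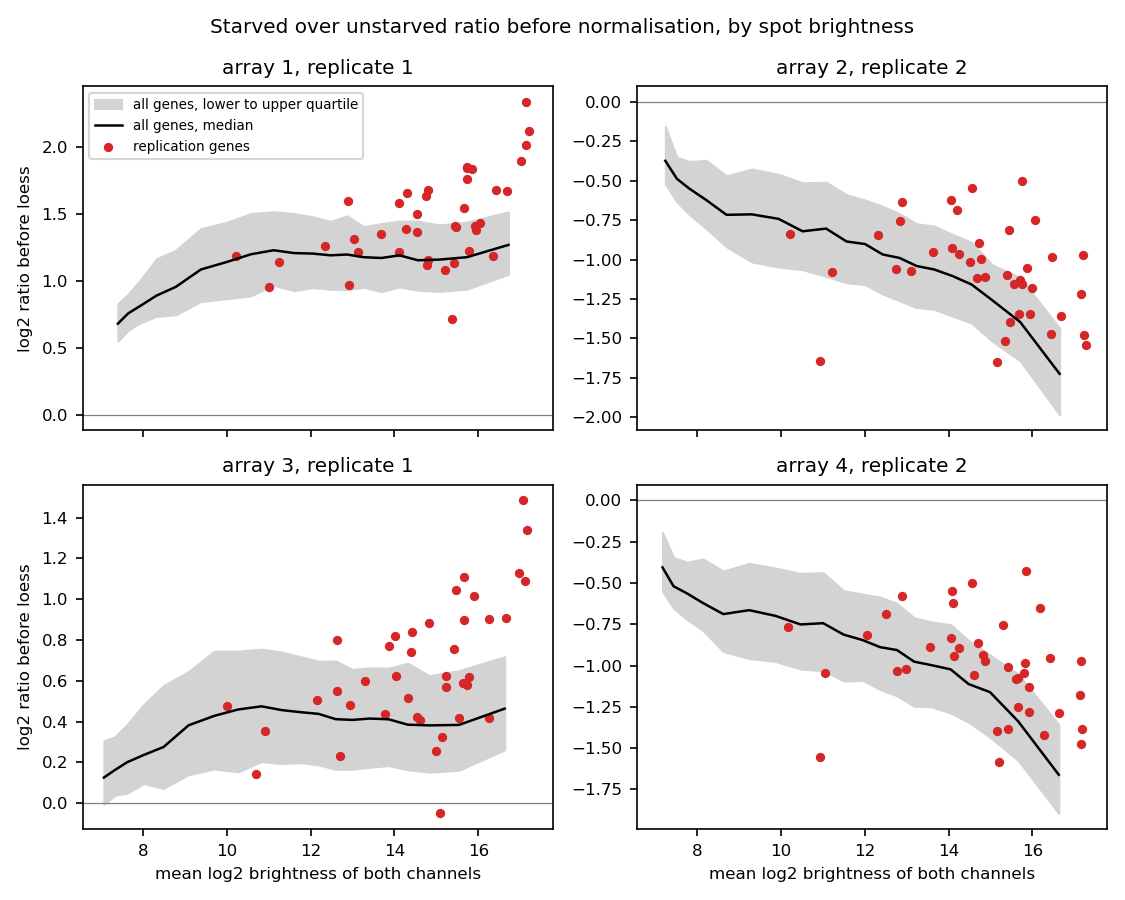
Log2 ratio of starved over unstarved cells before loess (vertical) against mean log2 brightness of both channels (horizontal) on each array. The black line is the median and the grey band the quartile range of all genes in brightness bins, and red points are the 40 replication genes. On arrays 2 and 4 the line falls toward bright spots, where most replication genes lie, and most of the red points stand above it.

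**Figure D5:**
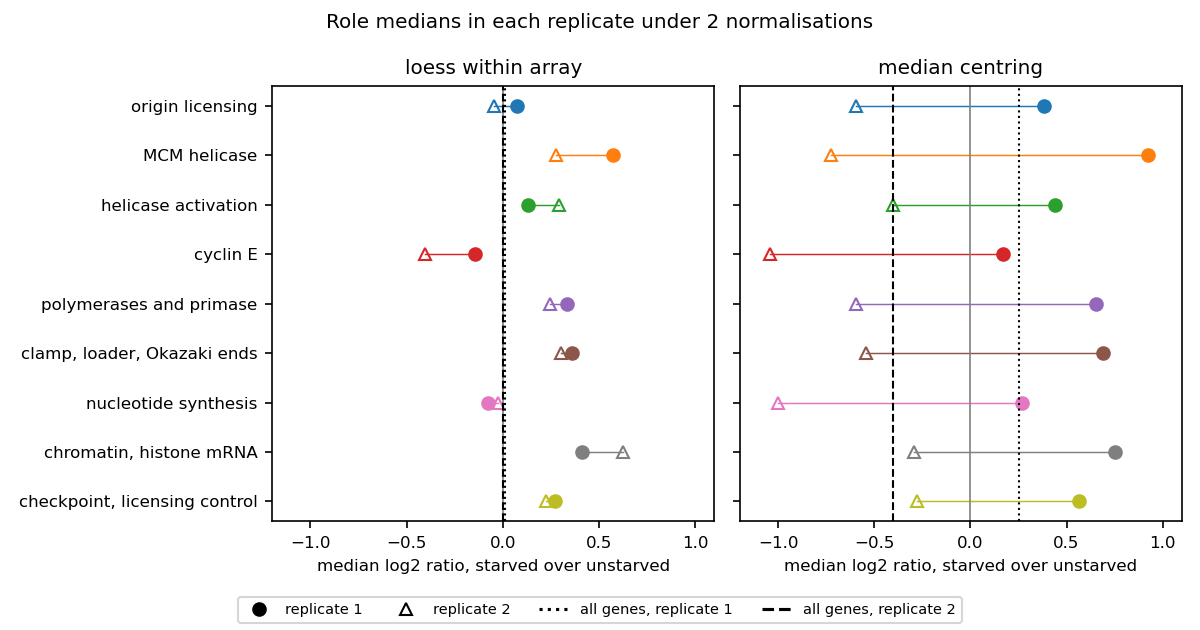
Median log2 ratio of starved over unstarved cells (horizontal) of each role group in replicate 1 (filled circles) and replicate 2 (open triangles), after loess on the left and after median centring on the right. Dotted and dashed lines mark the median of all genes in replicate 1 and replicate 2. After loess every group except origin licensing, cyclin E and nucleotide synthesis lies right of 0 in both replicates. After median centring every group lies left of 0 in replicate 2 and right of 0 in replicate 1.

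A wider list held 60 further replication genes, all tested. Of these 6 rose, 7 fell and 47 did not pass, the median log2 ratio being 0.03, against the 18.1% higher and 13.4% lower over all genes. The 6 that rose were Dscc1, a part of the alternative clamp loader for sister chromatid cohesion (0.58 ± 0.12, adjusted p = 0.0018), Timeless of the fork protection complex (0.55), Tonsl, a reader of newly placed histones (0.53), Topbp1, a scaffold of origin firing (0.44), the clamp loader subunit Rfc2 (0.37) and Mtbp, which works in origin firing (0.36). All 6 lay above 0 in both replicates, from 0.17 (Rfc2, replicate 1) to 0.62 (Dscc1, replicate 2).

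Of the 7 that fell, 4 belong to the 11 further genes of nucleotide supply, whose median was -0.16 and of which 0 rose. Cad, the enzyme that starts pyrimidine synthesis, had the largest fall, to a log2 ratio of -0.76 ± 0.14 (adjusted p = 5.8e-04), with -1.03 in replicate 1 and -0.49 in replicate 2. Samhd1, which breaks down deoxynucleotides and so works against supply, had -0.68 ± 0.12 (adjusted p = 5.0e-04), and Gart of purine synthesis had -0.41. The others among the 6 largest falls were Orc2 of the origin recognition complex (-0.49), the topoisomerase Top1 (-0.46) and Supt16, a histone chaperone subunit (-0.41). The nucleotide genes of the 40 and the further 11 thus had medians of -0.09 and -0.16.

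Of 38 mitotic genes, which act later in the cycle, 4 rose and 2 fell, and their median log2 ratio was -0.00310, against 18.1% and 13.4% over all genes. Mki67, the proliferation antigen Ki-67, was among the 4 (0.51 ± 0.13, adjusted p = 0.0052), with 0.39 in replicate 1 and 0.64 in replicate 2. It had the largest ratio of the 38, and the 2 that fell were Cenpa (-0.44) and Ube2c (-0.34). In both replicates 11 of the 38 lay above 0 and 16 below. The median of the 40 replication genes was 0.26 in the same fit.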

How the data were processed

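The members and gene lists were chosen with earlier results of these data known. Per sample records, the deposited intensity of each spot, read as a mean signal with a median local background, came from Agilent Feature Extraction 9.5.3.1. The file headers gave 1 slide and 1 scan, so no batch could be tested. The authors' processed intensity values, background-subtracted and dye-normalised, and their linear value table entered only as alternatives. Column medians of that table lay between 74.7 and 77.1, and no source used here states its scaling. Each hybridisation was deposited as 2 samples with identical files, and the channel of a sample's own dye was read.

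Signals were background-corrected (normexp, offset 50) and loess-normalised within arrays in limma 3.58.1 under R 4.3.3. Of 45018 spots per array, 1639 controls and 583 flagged spots over the 4 arrays had weight 0, and 0 were saturated. Replicate spots were averaged per probe, and the brightest probe stood for a gene, taken among the 24589 well above background on all 4 arrays of a group. Arrays of a replicate were averaged, and both replicate log2 ratios, paired by co-hybridisation, were fitted with lmFit and eBayes (two-sided, Benjamini-Hochberg adjusted p below 0.05 over 16068 genes). With 1 residual degree of freedom, errors lean on a spread pooled over all genes (prior SD 0.18, 15.1 prior degrees of freedom). Levels come from separate channels after loess and Aquantile. The number of arrays limits the precision. Same-numbered starved and unstarved samples deviated from their group means with a correlation of -0.297 across genes. They carry opposite dyes, so this cannot test the pairing.

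All 40 members were accounted for. Those past the threshold were named, as were, of those below it, the genes with the widest gap between replicates in each role and genes with probes of opposite sign. Full levels were given for the MCM genes and for the 4 largest and 4 smallest ratios, and for other genes chosen as examples after their values were seen. Of the 60 further genes, at most the 6 largest called ratios in each direction were named.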

Additional observations from a re-analysis of the deposited data

How the results depend on the processing

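Median centring in place of loess gave 0 replication genes higher, 0 lower and 249 called over all genes, with a median of 0.0233 over the 40, and all 15 calls were lost. It turned the log2 ratios of Cdc6 to -0.11, Mcm3 to -0.0265, Mcm5 to -0.0747, Mcm10 to -0.0636, Pola2 to -0.0687, Prim1 to -0.17, Pole to -0.0402, Rfc5 to -0.0273, Fen1 to -0.10, Rrm1 to -0.25 and Tyms to -0.33. With the arrays paired in other ways, arrays 1 and 2 against 3 and 4 gave 32 higher, 5 lower and 14296 over all genes. Arrays 1 and 4 against 2 and 3 gave 31, 5 and 14102. Fitted singly with a dye term, the 4 arrays gave 33, 5 and 14200. By the labels, these fits take their error from repeat arrays of a replicate. Their counts do not allow for the spread between biological replicates. Without the replicate block, on separate channels, the counts were 17, 1 and 5858, and as a random replicate block 15, 1 and 5359. With the processed signals 10 were higher, 1 lower and 4913 called over all genes. The deposited value table gave 11, 1 and 4991, and Cdc6 was at -0.00271 in both. With the mean of all probes Pold1 passed (adjusted p = 0.044) and Uhrf1 (0.0610) and Dtl (0.129) did not. With a random replicate block Pola1, Pold1 and Rfc5 passed (0.023 to 0.043) and Mcm2 (0.0509) and Chaf1a (0.0587) did not. Without the block the same 3 passed (0.026 to 0.047) and 0 calls were lost. With a normexp offset of 10 Mcm2 was lost (0.0501). Leaving out 1 replicate left a median of 0.249 (without replicate 1) or 0.202 (without replicate 2) over the 40 genes with no test. Leaving out 1 array left a median of up to 0.27, with 13 or 14 genes higher and 1 lower. Over all genes 5519 were called without array 1 and 5038 without array 2, against 5051 in the main fit. Some ratios changed sign between the replicates: without replicate 1 and without replicate 2, Cdc6 was at -0.0439 and 0.0719, Mcm10 at 0.355 and -0.0179, Pola2 at 0.248 and -0.178, Pole2 at -0.0725 and 0.418, Fen1 at 0.284 and -0.0108, Tyms at 0.0777 and -0.0193 and Clspn at -0.0389 and 0.0934. The causes were not tested.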
